A study of Mus musculus with 2 samples.

Results

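The 43 genes described here encode glycosyltransferases and glycan-trimming enzymes, mostly of the Golgi, and the chaperone C1galt1c1. All are called enzymes below. They are 20 sialyltransferases and 23 others that serve to build and branch the N- and O-glycans on which sialic acid is placed. They were taken by gene symbol from the expression values of 2 libraries of C2C12 cells, an immortalised mouse myoblast line. All 43 symbols had a value, out of 21829 gene symbols in all. One library came from unedited cells (WT) and the other from a Gne-knockout line (KO). In the KO line, Cas9 and a guide RNA had introduced an indel in exon 2 of Gne, which encodes the enzyme that makes the precursor of sialic acid, and clones had been grown from single cells. Both were kept as myoblasts in serum-containing medium, and no starvation or drug is given for them in the labels. The values were taken as FPKM, a unit scaled to transcript length and to the size of the library. If that reading is right, levels of different genes can be compared.

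With a single library of each line there was no replicate error and no test, and each difference below is one between these libraries. Differences that came with the choice of clone cannot be told apart from those that follow from Gne. Fold changes are log2((KO + 1)/(WT + 1)), on which weakly expressed genes appear to change less than they do. They are given for the 10542 genes that averaged 1 FPKM or more over the libraries, and a gene is counted as different when it is more than 2-fold, or more than 1.5-fold, higher or lower on this scale.

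Sialic acid is the outermost sugar of many glycoproteins and gangliosides. It is activated to CMP-sialic acid in the nucleus and carried into the Golgi. There, 4 families of sialyltransferases attach it in an α2,3 linkage to galactose (ST3Gal), in an α2,6 linkage to galactose (ST6Gal) or to N-acetylgalactosamine (ST6GalNAc), or in an α2,8 linkage to another sialic acid (ST8Sia). The number of places that can receive it depends on earlier enzymes, since each branch that a GlcNAc-transferase starts on an N-glycan can be extended with galactose and then capped. The lectin SNA binds α2,6-linked and MAL II preferentially α2,3-linked sialic acid, and the study stained these cells with both.

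The 2 libraries were checked as a whole before the enzymes were described. Gne itself was 6.67 FPKM in WT against 7.34 FPKM in the library labelled KO (log2 fold change 0.12). An indel need not lower the amount of RNA, so this value is no check of the labels, from which the directions below are taken. Of 5 myoblast markers past the filter, 4 had less than 0.5 times and 1 had more than 2 times the WT value in the library labelled KO. The summed level of the 6 markers listed was 199 and 25.8 FPKM. Myod1, a defining myoblast regulator, was 59.97 FPKM in WT and listed at 0 in the other library. The marker with the higher value was Myf5, at 9.14 FPKM in WT against 20.3 FPKM in the library labelled KO, where it made up most of the sum. Among the 3 fibroblast markers past the filter, only the collagen genes Col1a1 and Col1a2 differed by more than 2-fold. They were 9.66 and 237 FPKM in WT, against 273 and 621 FPKM. These collagen genes made up most of the sum over the 6 fibroblast markers listed, which was 258 and 908 FPKM. Pdgfra, the third, differed little, at 10.8 FPKM in WT against 12.3 FPKM (log2 fold change 0.17). Dcn, below the filter, was 0.272 and 1.681 FPKM, and Lum and Thy1 were listed at 0 in both libraries. The neural markers Tubb3 and Map2 were 17.99 and 4.25 FPKM in WT, against 0.997 and 0 FPKM. The 4 endothelial markers summed to 0.010 and 0.028 FPKM, and of the 4 blood cell markers Ptprc, Adgre1 and Itgam were listed at 0 in both libraries and Cd68 was 2.85 and 1.06 FPKM. The part of these marker differences in the results below was not tested. In bulk RNA, fewer cells of a type and less RNA per cell cannot be told apart.

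Most of the enzymes were present in both libraries at similar levels, and a few stood higher in the library labelled KO. Of the 43 genes, 28 averaged 1 FPKM or more, 8 of the 20 sialyltransferases and 20 of the 23 other enzymes. Of the 15 others, 7 were listed at 0 in both libraries, and apart from Man1a none was above 0.142 FPKM in either. Of the 28 genes past the filter, 15 (53.6%) were higher in the library labelled KO and 13 lower. The share higher was near that over all genes tested, which was 50.7%. The 28 include B4galt1, C1galt1, Mgat3 and St6galnac6, all close to 0, whose signs turned in at least 1 alternative. The median log2 fold change of the 28 was 0.02, against 0.01 over all genes tested. A single gene, St6gal1, was more than 2-fold higher, while 2.84% of all genes tested were. None of the 28 was more than 2-fold lower, while 3.43% of all genes tested were. At 1.5-fold, 5 were higher, 17.9% of the 28 against 7.68% of all genes tested. When the median of neighbouring genes was subtracted, 2 of the 28 and 6.56% of all genes were past this limit, so the shares were then close. Below the corresponding lower limit there was none, where 7.50% of all genes tested lay. However, St6galnac4 lay just short of the limit and crossed it, for a split of 5 and 1, under either of 2 other scalings of the libraries. Of all genes, 7.69% and 7.86% were then below this limit. The middle 50% of all genes tested lay between -0.21 and 0.23, and 12 of the 28 enzymes lay within that range, 11 above it and 5 below it.

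**Figure D1:**
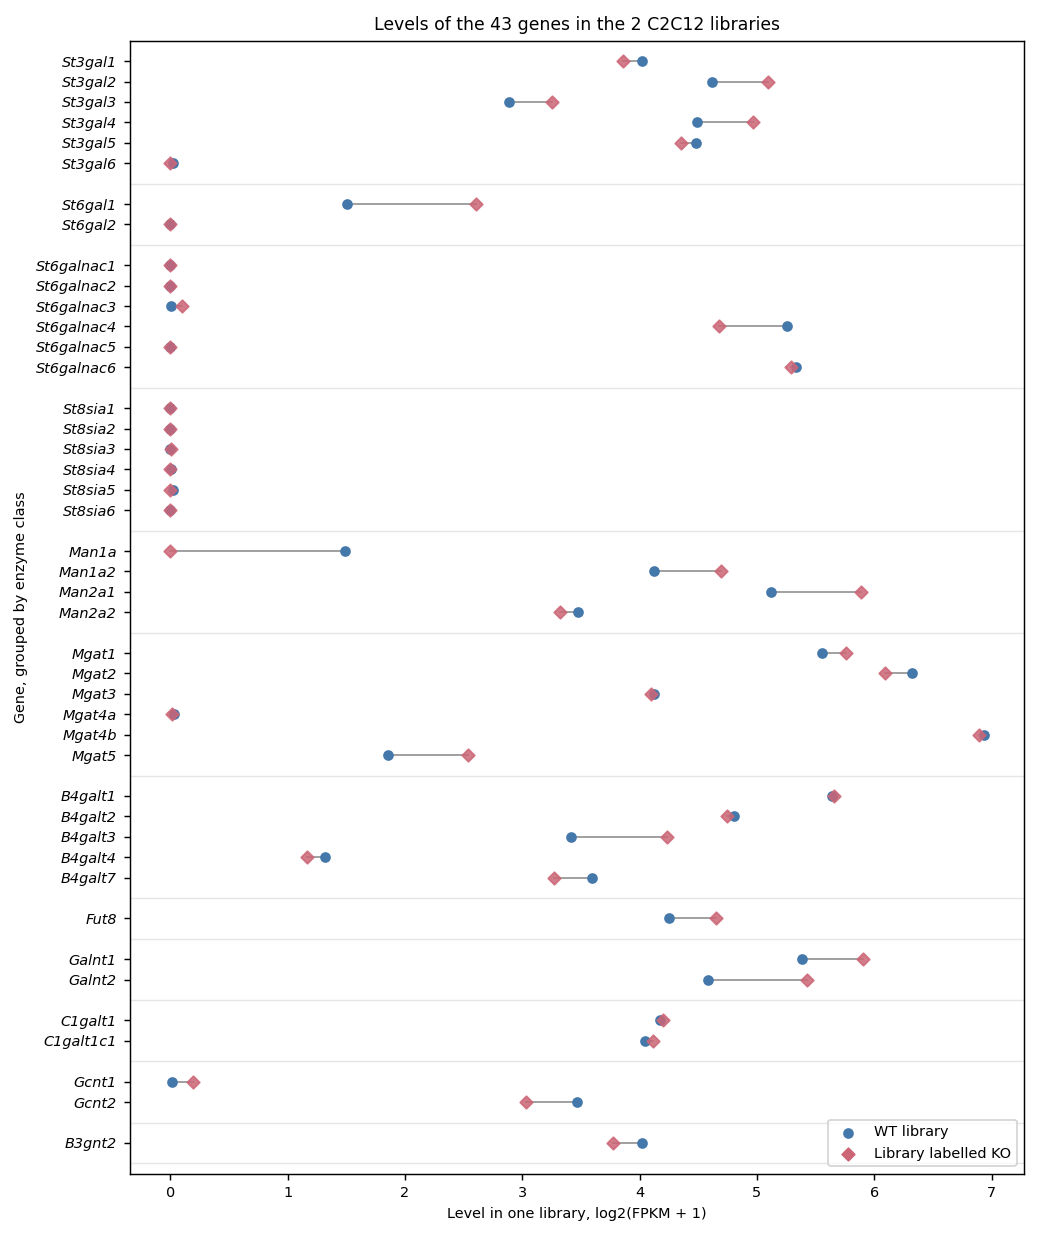
Level of each of the 43 genes in the WT library (circle) and the library labelled KO (diamond) as log2(FPKM + 1), with a line joining the 2 values of a gene and genes grouped by enzyme class. The α2,8-sialyltransferases sit at or near 0 in both libraries, Mgat4b has the highest value in each, and the longest lines are those of Man1a and St6gal1.

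The ST3Gal family held the largest part of the sialyltransferase RNA, and 3 of its 5 expressed members were higher in the library labelled KO by less than 1.5-fold. St3gal2 and St3gal4 differed almost alike. St3gal2, which acts on core 1 O-glycans and on gangliosides, was 23.5 FPKM in WT against 33.2 FPKM in the library labelled KO (log2 fold change 0.48). St3gal4, which caps N-acetyllactosamine on glycoproteins, was 21.5 and 30.3 FPKM, also 0.48 on the log2 scale. St3gal3, another enzyme of N-glycan ends, was lower in level than either, at 6.40 and 8.54 FPKM, and had a log2 fold change of 0.37. The remaining members were slightly lower in the library labelled KO. St3gal1, which sialylates core 1 O-glycans, was 15.3 and 13.5 FPKM (log2 fold change -0.17). St3gal5, the GM3 synthase that makes the first ganglioside of the pathway, was 21.3 and 19.5 FPKM (log2 fold change -0.12). St3gal6 was barely above 0 in WT, at 0.019 FPKM, and listed at 0 in the other library. The values of the 6 genes summed to 87.9 FPKM in WT against 105 FPKM in the library labelled KO.

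The largest fold change of the 28 genes belonged to St6gal1, which makes the α2,6 linkage at the ends of N-glycans and is the main such enzyme in most tissues. It was 1.84 FPKM in WT against 5.10 FPKM in the library labelled KO, a ratio of 2.77 and a log2 fold change of 1.10. Of all genes tested, 97.6% had a lower log2 fold change. The value is a low one in both libraries, and the fold change depended on the pseudocount: it was 1.42 when 0.1 was added before the logarithm and 0.56 when 5 was added. In the latter case it was no longer more than 1.5-fold. St6gal2, the other enzyme of this linkage, whose known expression is largely in the brain, was listed at 0 in both libraries. Among the 8 sialyltransferases that act on galactose, St6gal1 made up 2.05% of the summed FPKM in WT against 4.63% in the library labelled KO, so that ST3Gal transcripts were in large excess in both.

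In the ST6GalNAc family, 2 genes passed the filter. St6galnac4, which adds α2,6-linked sialic acid to already sialylated core 1 O-glycans, was 37.2 FPKM in WT against 24.6 FPKM in the library labelled KO, and the log2 fold change of -0.58 was the lowest of the 28 genes. St6galnac6, an enzyme of ganglioside and glycolipid sialylation, was 39.3 and 38.2 FPKM (log2 fold change -0.04). The order of these genes was the same in both libraries, but the share of St6galnac4 in the family was 48.6% in WT against 39.1% in the library labelled KO. They are neighbours on chromosome 2 of GRCm39, on the same strand, with 10 bases between the end of the annotated St6galnac4, at 32489710, and the start of St6galnac6, at 32489721. Fragments that run past the end of the first gene could be counted for the second, which was not tested. St6galnac1, St6galnac2 and St6galnac5 were listed at 0 in both libraries, and St6galnac3 was 0.004 and 0.074 FPKM. The 6 genes summed to 76.6 and 62.95 FPKM.

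No α2,8-sialyltransferase had a value that allows a comparison. A listed 0 need not mean absence of the transcript. Of 79 cytosolic ribosomal protein symbols, picked by the form of the name, 3 were also at 0 in a library. Whether those 3 are genes that every cell uses was not tested. St8sia1, the GD3 synthase, and St8sia2, which builds polysialic acid on NCAM, were listed at 0 in both libraries, as was St8sia6. St8sia4, the other polysialyltransferase, was 0.007 FPKM in WT and listed at 0 in the other library. St8sia5 was 0.019 FPKM and listed at 0, and St8sia3 was listed at 0 and at 0.004 FPKM. Depth is unknown, so no upper limit can be attached to these zeros.

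Taking all 20 sialyltransferases, the summed level was 166 FPKM in WT against 173 FPKM in the library labelled KO. The ST3Gal family made up 52.9% and 60.7% of this sum, and the ST6GalNAc family 46.0% and 36.4%. The ST6Gal family made up 1.11% and 2.95%. These shares do not change when a library is rescaled by a constant factor. They are sums of RNA levels and say nothing of enzyme activity.

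**Figure D2:**
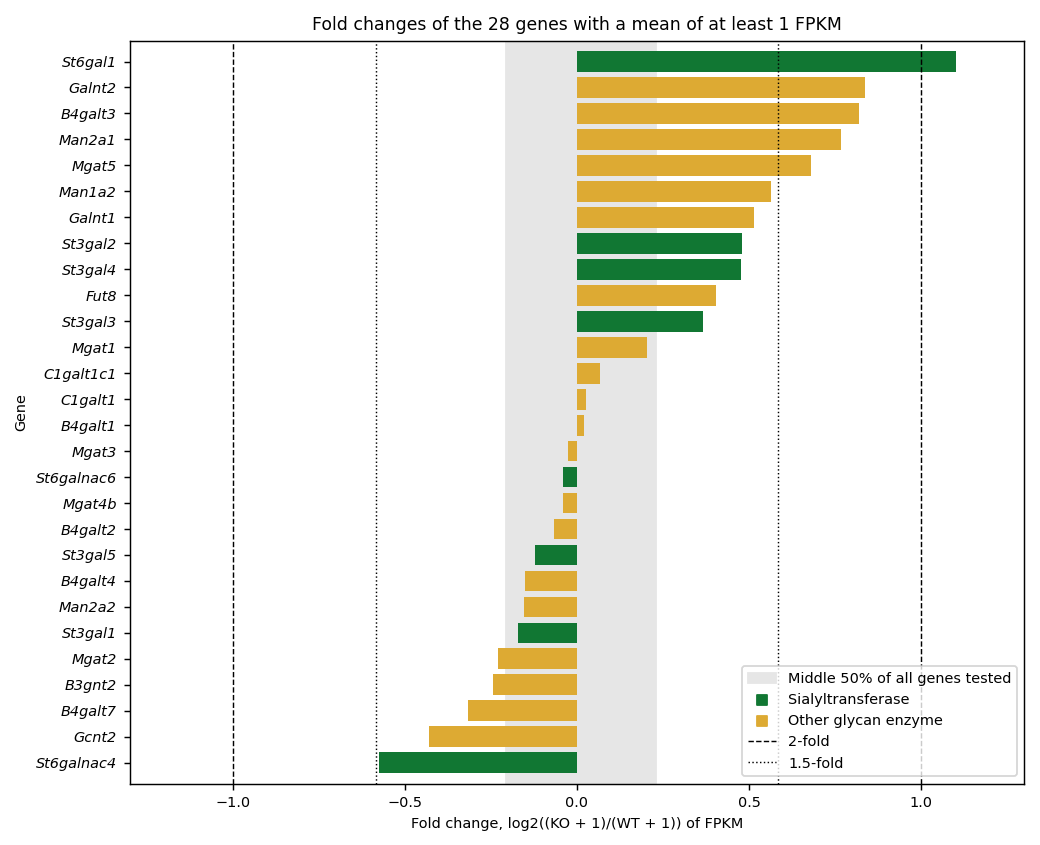
Log2 fold change, log2((KO + 1)/(WT + 1)), of the 28 genes that averaged 1 FPKM or more, in order, with sialyltransferases and the other glycan enzymes in different colours and the middle 50% of all genes tested shaded. St6gal1 at 1.10 is the only bar past the 2-fold line, Galnt2, B4galt3, Man2a1 and Mgat5 lie between the 1.5-fold and 2-fold lines, and St6galnac4 at -0.58 ends the list.

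Golgi α-mannosidases trim the N-glycan so that branches can be started. Man2a1, which removes the last mannoses after Mgat1 has acted, was 33.8 FPKM in WT against 58.2 FPKM in the library labelled KO (log2 fold change 0.77). Its isoenzyme Man2a2 was 10.1 and 9.02 FPKM (log2 fold change -0.15). Man2a1 therefore made up 76.9% of this pair in WT against 86.6% in the library labelled KO. The earlier trimming enzyme Man1a2 was 16.45 and 24.8 FPKM, and its log2 fold change of 0.56 lay just inside the 1.5-fold limit, which is 0.58 on this scale. Man1a, which shares the step with Man1a2, was 1.81 FPKM in WT and listed at 0 in the other library. It did not pass the filter, so it is in none of the counts of higher and lower genes above. Without the filter it would be the single enzyme more than 2-fold lower, where 1.79% of all genes were. Of all genes, 26 at 1 FPKM or more in WT were listed at 0 in the other library, and 29 the other way round, so that a failed estimate cannot be told from loss of the transcript. The 4 mannosidases summed to 62.2 and 92.0 FPKM.

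The GlcNAc-transferases start the antennae, and all but one of those expressed differed by less than 1.5-fold. Mgat1, which starts the first branch and thereby opens the way to complex N-glycans, was 46.1 FPKM in WT against 53.2 FPKM in the library labelled KO (log2 fold change 0.20). Mgat2, which starts the second branch, was 78.7 and 67.0 FPKM (log2 fold change -0.23). Mgat4b, which starts the β1,4 branch, had the highest level of all 43 genes, 121 and 118 FPKM, with 711 of all 21829 genes above it in the WT library. Mgat4a, which has the same activity, was 0.021 and 0.012 FPKM. Mgat3, which adds the bisecting GlcNAc that hinders further branching, was 16.4 and 16.1 FPKM.

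Mgat5, which starts the β1,6 branch that carries poly-N-acetyllactosamine, was the exception. It was 2.62 FPKM in WT against 4.79 FPKM in the library labelled KO (log2 fold change 0.68). Within a library, Mgat4b had 46.3 times the level of Mgat5 in WT and 24.6 times in the library labelled KO, and Mgat3 had 6.28 and 3.37 times its level. Mgat5 remained the lowest of the 5 expressed GlcNAc-transferases in both libraries, and its fold change was 0.36 with a pseudocount of 5. The 6 GlcNAc-transferases summed to 265 and 259 FPKM.

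Galactosylation gives sialyltransferases their acceptor. B4galt1, the enzyme best known for galactosylating N-glycans, was 48.8 FPKM in WT against 49.5 FPKM in the library labelled KO (log2 fold change 0.02, with the opposite sign when the libraries were scaled to the same upper quartile). B4galt2 was 27.0 and 25.8 FPKM (log2 fold change -0.07). B4galt3 differed from both, at 9.67 and 17.8 FPKM, a log2 fold change of 0.82. Its share in the sum of B4galt1 to B4galt4 was 11.1% in WT against 18.9% in the library labelled KO. B4galt4 was 1.49 and 1.246 FPKM (log2 fold change -0.15). B4galt7, which works on the linker of proteoglycans and not on N-glycan antennae, was 11.05 and 8.67 FPKM (log2 fold change -0.32). Fut8, which adds the core fucose of N-glycans, was 18.0 and 24.1 FPKM (log2 fold change 0.40). B3gnt2, which extends poly-N-acetyllactosamine, was 15.2 and 12.7 FPKM (log2 fold change -0.24).

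Among O-glycan enzymes, 2 of those that start the chain, Galnt1 and Galnt2, were higher in the library labelled KO, and the enzymes of the next step differed little. Galnt2, which attaches the first N-acetylgalactosamine to serine or threonine, was 23.0 FPKM in WT against 41.9 FPKM in the library labelled KO (log2 fold change 0.84). Galnt1, of the same function, was 40.8 and 58.7 FPKM (log2 fold change 0.51). Other members of the wider Galnt family varied. Galnt7 had a log2 fold change of 0.10, Galnt10 of -0.10 and Galnt18 of -1.24, while Galnt11 was at 0.29 and Galnt4 at 0.45. C1galt1, the core 1 synthase, was 17.1 and 17.4 FPKM (log2 fold change 0.03), and C1galt1c1, the chaperone it needs, was 15.5 and 16.3 FPKM (log2 fold change 0.07). C1galt1 was at -0.0003 with scaling to the same upper quartile and at -0.18 after subtraction of neighbouring genes. No direction is therefore given for it beyond its place in the count of higher genes above. Gcnt2, which makes I branches on poly-N-acetyllactosamine, was 10.0 and 7.20 FPKM (log2 fold change -0.43). Gcnt1, the core 2 enzyme, was 0.008 and 0.142 FPKM, below the filter in both libraries.

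**Figure D3:**
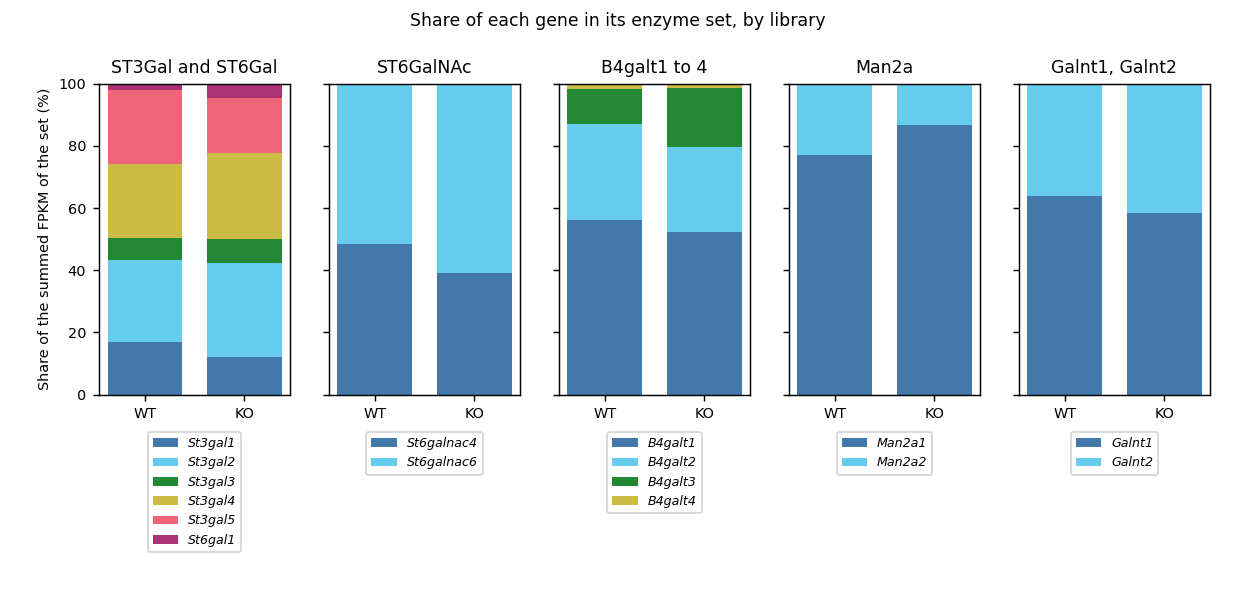
Share of each gene in the summed FPKM of its enzyme set, in percent, with one stacked bar for the WT library and one for the library labelled KO in each of 5 sets; genes under 0.5% of a set in both libraries are not drawn. St6gal1 goes from 2.05% to 4.63%, St6galnac4 from 48.6% to 39.1%, B4galt3 from 11.1% to 18.9%, Man2a1 from 76.9% to 86.6% and Galnt2 from 36.0% to 41.6%.

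The order of the levels was largely shared by the libraries. Across the 28 genes, which are not independent replicates, Pearson's r of the log2 levels was 0.94, against 0.92 over the 10507 tested genes above 0 in both libraries. Of the 10 enzymes with the highest levels in each library, 8 were the same. The median level of the 28 was 17.5 FPKM in WT and 21.8 FPKM in the library labelled KO, against 15.3 and 15.4 FPKM for all genes tested.

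Each enzyme was set beside the other tested genes within 5 Mb, because neighbouring genes differed together in some regions: the median log2 fold change of the neighbours ran from -0.39, around Mgat3, to 0.33. St6gal1, on chromosome 16 of GRCm39 from 23043460 to 23179103, had 51 such neighbours with a median log2 fold change of -0.07, and after its subtraction St6gal1 was at 1.18. B4galt3, on chromosome 1 from 171097872 to 171104480, had neighbours at 0.17 and was at 0.65 after subtraction. For the other 3 genes more than 1.5-fold higher, subtraction brought the value inside the 1.5-fold limit. Galnt2, on chromosome 8 from 124958099 to 125072466, had 78 neighbours with a median of 0.33 and was then at 0.51. Mgat5, on chromosome 1 from 127132752 to 127416073, had 25 neighbours at 0.32 and was then at 0.36. Man2a1, on chromosome 17 from 64907705 to 65062105, had 19 neighbours at 0.19 and was then at 0.580, just under the limit of 0.585. Among the ST3Gal genes, St3gal4 on chromosome 9 and St3gal2 on chromosome 8 had neighbours at 0.33 and 0.27, and were left at 0.15 and 0.21, whereas St3gal3 on chromosome 4 had neighbours at -0.06 and was at 0.42. The cause of these shared shifts was not tested. After subtraction 2 of the 28 genes, St6gal1 and B4galt3, were more than 1.5-fold higher, as were 667 of 10170 genes, or 6.56%, so that the share among the enzymes was close to that among all genes.

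**Figure D4:**
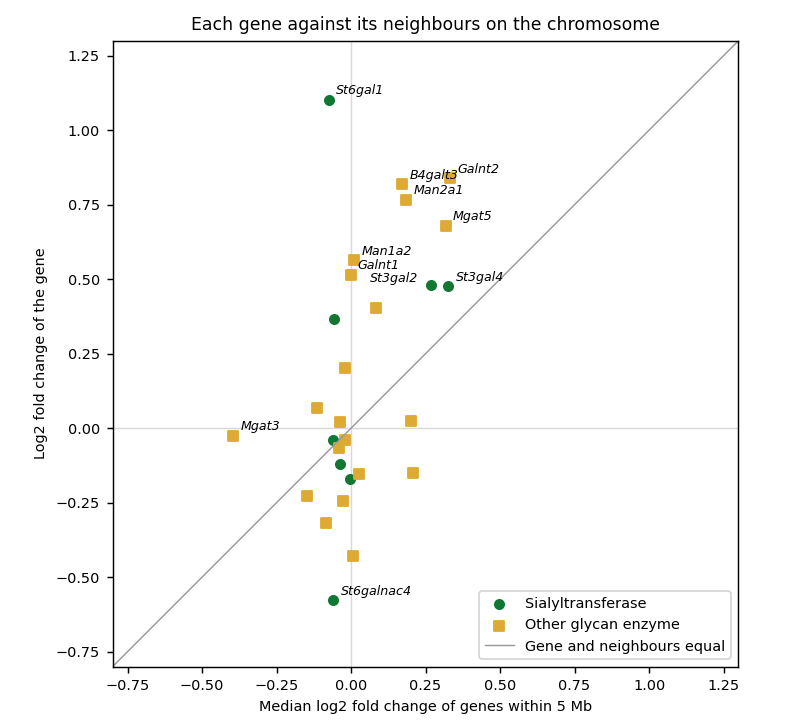
Log2 fold change of each of the 28 genes against the median log2 fold change of the other tested genes within 5 Mb of its start, with the line on which both are equal. St6gal1 lies at 1.10 with neighbours at -0.07, while Galnt2, Mgat5, St3gal4 and St3gal2 lie beside neighbours between 0.27 and 0.33.

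The sequence before the start of transcription is shown for 3 of the genes more than 1.5-fold higher. Each is the part of the RefSeq promoter window, 250 bases before the start, that no exon of GENCODE vM39 covers. The window of Man2a1 lies wholly in exons, and Galnt2 was not matched in the RefSeq table used here, which held 29 of the 43 genes. The windows come from GRCm38.p6 and each matched GRCm39 at 1 place, where the stretches shown are chr16:23043240-23043459, chr1:171097648-171097871 and chr1:127132473-127132722, all on the plus strand. St6gal1 has 3 starts in this table, of which the most upstream is shown, and a value per gene does not tell which start was used. Capitals mark GC boxes (GGGCGG) and CCAAT boxes (CCAAT) on either strand.
St6gal1: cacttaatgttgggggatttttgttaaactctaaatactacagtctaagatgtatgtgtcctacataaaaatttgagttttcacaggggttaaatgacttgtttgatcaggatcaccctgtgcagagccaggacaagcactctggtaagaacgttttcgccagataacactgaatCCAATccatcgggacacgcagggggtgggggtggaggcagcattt
B4galt3: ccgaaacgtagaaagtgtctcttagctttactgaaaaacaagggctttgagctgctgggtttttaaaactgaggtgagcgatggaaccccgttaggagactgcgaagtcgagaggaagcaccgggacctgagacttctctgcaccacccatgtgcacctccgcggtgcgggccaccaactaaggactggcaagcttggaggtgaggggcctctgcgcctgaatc
Mgat5: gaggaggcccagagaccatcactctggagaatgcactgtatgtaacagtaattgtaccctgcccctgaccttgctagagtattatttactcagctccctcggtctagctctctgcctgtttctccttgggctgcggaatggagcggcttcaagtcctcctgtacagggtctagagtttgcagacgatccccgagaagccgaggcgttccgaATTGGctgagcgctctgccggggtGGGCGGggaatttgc

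These stretches differ in base composition, with a GC content of 44.1% for St6gal1, 55.4% for B4galt3 and 56.0% for Mgat5. The stretch of Mgat5 holds 1 GC box and 1 CCAAT box, that of St6gal1 1 CCAAT box and that of B4galt3 neither. The 19 enzymes past the filter that were in the table had 28 full windows, because some genes have several starts. Of these windows, 60.7% held GGGCGG, against 32.7% of the 32851 windows of all genes. The median GC content of the 28 windows was 59.4%, against 52.4% over all windows. Its part in the shares given here was not tested. CCAAT was held by 39.3% against 33.8%. TATAAA was in none of the 28 and in 12.4% of all windows, and CAGCTG, an E-box of the kind MyoD binds, was in 1 of the 28, or 3.57%, against 13.0% of all windows. All genes in the table include many with low values or 0 in these cells, so these shares are a description of the enzymes' windows and not of the differences between the libraries.

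Other genes of the same pathways were counted from lists. The supply of CMP-sialic acid differed little at the RNA level. Cmas, which makes CMP-sialic acid, was 22.9 FPKM in WT against 23.5 FPKM in the library labelled KO, and Slc35a1, which carries it into the Golgi, was 20.6 and 21.9 FPKM. Of 12 genes of sialic acid supply and removal, 6 passed the filter and none was more than 1.5-fold higher or lower. The same was true of the 3 transporters of the other donor sugars. Over all genes tested, 7.68% were more than 1.5-fold higher and 7.50% lower. Of 33 further genes of the same enzyme families, 14 passed the filter. Among these, 1 was more than 1.5-fold higher and 2 were more than 2-fold lower, while 7.68% and 3.43% of all genes tested were. The 2 lower genes were B4galt5 and Galnt18. B4galt5, the main lactosylceramide synthase, was 50.4 and 19.7 FPKM (log2 fold change -1.31). Galnt18, a relative of Galnt2, was 9.33 and 3.37 FPKM (log2 fold change -1.24). Gcnt4, a core 2 enzyme, was 2.702 and 5.95 FPKM (log2 fold change 0.91). The neighbours of these 3 genes had medians of -0.07, 0.04 and 0.09. B4galt5 lies 1 step before St3gal5 in ganglioside synthesis, and St3gal5 had a log2 fold change of -0.12.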

How the data were processed

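The authors mapped and quantified the reads and deposited normalized values per gene, in no named unit, which were taken here as FPKM because they are not whole and the column totals differ (568410 and 574144 after repeated symbols were dropped). Values in TPM would differ by 1 factor per library, which leaves the shares alike. Normalized counts could share the features named, which was not tested. Comparisons of level, shares and sums across genes would then depend on transcript length. Depth is unknown, so no counting error is given. The methods name TrimGalore, STAR, RSEM and GRCm39. The submitters' processing notes list Trim Galore 0.6.6, STAR 2.7.9a, RSEM 1.3.3 and GRCm38. The labels and the supplementary methods name different library kits and sequencers.

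Of 21853 rows, 24 repeated a symbol (St6galnac2 among them), and the row of higher average was used for each. Fold changes used a pseudocount of 1 and a filter at an average of 1 FPKM. No p-value was computed with 1 library per group. All 43 genes are accounted for by class, and fold changes are given for those past the filter. The genes, lists and limits were chosen with earlier results of these data known. Gene positions are from GENCODE vM39, for 10171 of 10542 tested genes. Of these, 10170 had a neighbour. The scripts were tested on simulated data. Alternatives were pseudocounts of 0.1 and 5, leaving out the filter or setting it to 5 FPKM, median-of-ratios and upper-quartile scaling, a 1.5-fold limit and subtraction of neighbouring genes. Python 3.11.15, numpy 2.4.6 and pandas 2.3.3 were used.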

Additional observations from a re-analysis of the deposited data

How the results depend on the processing

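No paired analysis was possible because each line has a single library, and for that reason no replicate could be left out either. The count of 1 enzyme more than 2-fold higher became 0 with a pseudocount of 5 and with the filter at 5 FPKM, which removes St6gal1, whose log2 fold change was 0.56 with a pseudocount of 5. The count of 0 more than 2-fold lower became 1, Man1a, without a filter, where 391 of 21829 genes (1.79%) were lower. At 1.5-fold, the 5 higher enzymes became 3 with a pseudocount of 5 and with the filter at 5 FPKM, where 3.75% and 5.88% of all genes were higher. They became 6, with Man1a2 added, with a pseudocount of 0.1, where 973 of all genes (9.23%) were higher. After subtraction of neighbouring genes they became 2, where 667 of 10170 genes (6.56%) were higher and 582 (5.72%) lower. The 0 lower ones became 1, Man1a, without a filter, where 4.26% of all genes were lower. They became 1, St6galnac4, with a pseudocount of 0.1 (8.8% of all genes) and under median-of-ratios (7.69%) and upper-quartile scaling (7.86%). Over all genes, 299 higher and 362 lower at 2-fold became 102 (0.968%) and 176 (1.67%) under the larger pseudocount. Under the stricter filter, which 8572 genes passed, they became 145 (1.69%) and 221 (2.58%). At 1.5-fold, 810 and 791 became 395 and 445, and 504 and 523. The median of the enzymes stayed between -0.004 and 0.10 under all alternatives, with the highest value after subtraction of neighbours and the lowest, the only one below 0, under upper-quartile scaling. A single gene was taken as moved beyond 0.44, the width of the middle 50% of all genes, which 1 of 140 comparisons did. This limit is wide. Galnt2 (0.84 to 0.51), Mgat5 (0.68 to 0.36) and Man2a1 (0.77 to 0.580) left the 1.5-fold count after subtraction of neighbours without passing it. The signs of B4galt1, C1galt1, Mgat3 and St6galnac6, all close to 0, turned in at least 1 alternative. The shares of the sialyltransferase families moved by less than 0.1 points when genes below the filter were left out.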
